A study of Cricetulus griseus with 6 samples.

Results

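The genes of the Rel/NF-kB subunits and of the inhibitors that NF-kB itself induces were examined in CHO-T cells with and without *Xbp1* silencing. They were chosen by symbol as the 5 subunit genes *Nfkb1*, *Nfkb2*, *Rel*, *Rela* and *Relb*, the IkB family genes *Nfkbia*, *Nfkbie* and *Bcl3*, and *Tnfaip3* with its partner *Tnip1*. All 10 symbols were found, each on 1 row, among 27873 entries. CHO-T is a Chinese hamster ovary line made by retroviral transfer of mouse T-cadherin cDNA and puromycin selection, so both conditions carry the transgene, and selection of a single clone is not described. For 48 h the cells had received either negative control siRNA, with 3 libraries, or *Xbp1* siRNA, also with 3 libraries, and mRNA was sequenced. The study's methods describe its results in general as coming from independent biological experiments, with exceptions where specified, but the labels do not say whether the 3 libraries of a condition came from separate cultures. If they did not, p-values measure only the spread between these libraries, which may be technical.

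NF-kB is a family of dimeric transcription factors. In resting cells IkB proteins hold the dimers in the cytoplasm. In the canonical pathway, receptors for tumor necrosis factor, interleukin-1 and microbial products activate the IkB kinase complex, which marks IkBα for destruction and frees dimers of RelA. In the noncanonical pathway, the kinase NIK leads to processing of the *Nfkb2* product, which frees dimers of RelB. NF-kB induces the genes of several of its own inhibitors, among them IkBα and A20, which end the response, and some of its own subunits. mRNA levels do not show how much of the protein is in the nucleus.

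Expression is given in FPKM, which divides the sequenced fragments of a gene by its exon length and by the size of the library, so that levels of different genes can be compared. Summed FPKM was 646651 to 666267 per library with control siRNA and 593487 to 600986 with *Xbp1* siRNA. *Xbp1* fell by 3.78 on the log2 scale (limma adjusted p = 5.61e-06), and its mean went from 26.8 ± 1.35 to 1.89 ± 0.440 FPKM (SD, n = 3 each). Of the markers of fibroblast-like cells, *Vim*, *Sparc* and *Fn1* were expressed, while *Col1a1* and *Col1a2* were listed at 0 in every library. The label gives ovary as the tissue. Of the granulosa and theca markers, *Fshr*, the receptor for follicle-stimulating hormone, was listed at 0. *Amh*, at 2.07 to 3.55 FPKM, *Inha*, at 2.05 to 4.10 FPKM, and *Star*, at 0.743 to 1.21 FPKM, were detected in every library. Another 3 were not found by name, so their expression is not known. The 7 leukocyte markers summed to at most 0.154 FPKM in any library, and *Ptprc*, *Cd3e*, *Cd14* and *Adgre1* were listed at 0. The 3 epithelial markers found by name summed to 1.83 to 2.16 FPKM with control siRNA and 4.59 to 5.79 FPKM with *Xbp1* siRNA. Of these, *Epcam* and the weakly expressed *Cdh1* moved with the condition, and *Krt18* was listed at 0. The sum of the 5 fibroblast markers was 683 to 721 FPKM with control siRNA and 524 to 555 FPKM with *Xbp1* siRNA, most of it *Vim* and *Sparc*, while *Fn1* went the other way, at 12.7 to 13.5 FPKM with control siRNA and 23.2 to 23.4 FPKM with *Xbp1* siRNA. The 4 granulosa and theca markers found summed to 5.32 to 7.10 FPKM with control siRNA and 5.91 to 8.45 FPKM with *Xbp1* siRNA, and the 4 endothelial markers, with *Cdh5* listed at 0, to 0.104 to 0.412 FPKM and 0.0262 to 0.123 FPKM. The part of these shifts in the results below was not tested, and in bulk RNA fewer cells of a type and less RNA per cell cannot be told apart.

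Of the 10 genes, 5 rose after *Xbp1* silencing and none fell. *Tnfaip3* rose most, *Relb*, *Nfkbia*, *Nfkb2* and *Rela* rose less, by amounts whose intervals overlap, while *Nfkb1*, *Rel*, *Nfkbie*, *Bcl3* and *Tnip1* did not pass the test. A gene was tested with limma on log2(FPKM + 0.1), a scale that understates the change of weakly expressed genes, and p-values were adjusted over 14361 genes with a mean of at least 0.1 FPKM. By adjusted p under 0.05, 5 of the 10 genes were higher, against 20.2% of all genes tested, and 0 were lower, against 20.2%, and none of the 10 was lower at an unadjusted p under 0.05 (limma). Counted in either direction, 5 of the 10 changed, against 40.4% of all genes tested, a share near the background. With a limit of 1 on the absolute log2 fold change added, only *Tnfaip3* of the 10 was called, as higher, against 2.69% of all genes tested called higher, 2.5% lower and 5.19% in either direction. Most of the 10 had a mean of at least 5 FPKM. Of the 9209 genes tested at or above that level, 2245 were higher and 2579 lower by adjusted p alone. With the fold limit, 88 of them were higher and 220 lower. In 6 of the 10 genes the lowest library with *Xbp1* siRNA lay above the highest control library, and in 0 the groups were apart the other way, against 26.1% and 25.8% of all genes tested and 51.8% in either direction. The median log2 fold change of the 10 genes was 0.55, against 0.01 over all genes tested. Without *Bcl3*, which rests on very few reads and passed the filter only through its level with *Xbp1* siRNA, it was 0.49. For 3 libraries against 3, an exact two-sided permutation test of a single gene cannot give a p below 0.10. The 10 genes were chosen with earlier results of these data known, so their counts beside the shares of all genes are a description.

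**Figure D1:**
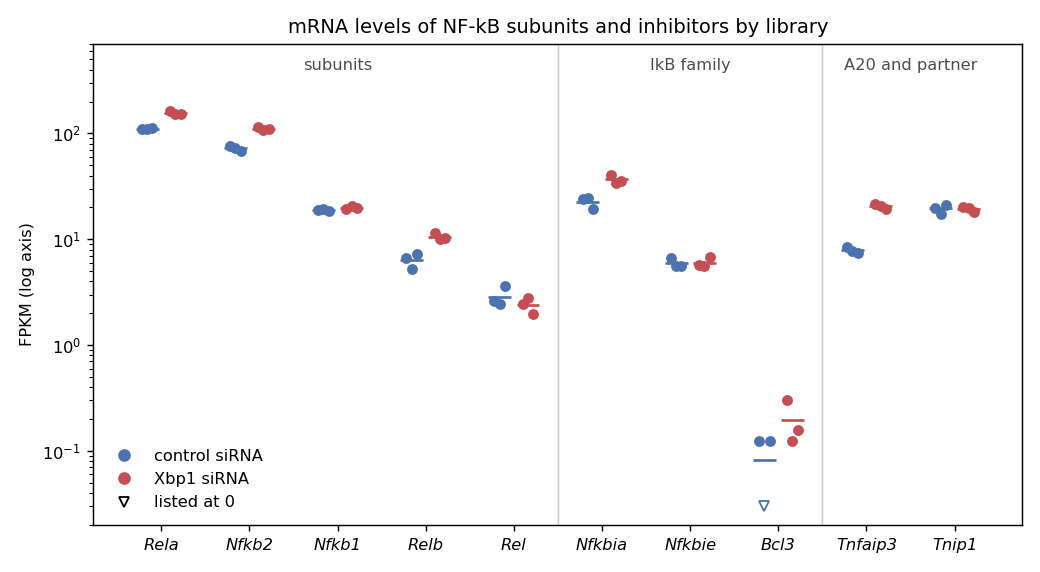
FPKM (log axis) of the 10 genes in each of the 6 libraries, with control siRNA in blue and *Xbp1* siRNA in red; points are libraries, horizontal bars are means of 3 libraries, and the open triangle is a library listed at 0. The red points lie above all blue points for *Rela*, *Nfkb2*, *Relb*, *Nfkbia* and *Tnfaip3*, and by a narrow margin for *Nfkb1*, while *Rel*, *Nfkbie*, *Bcl3* and *Tnip1* overlap.

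*Rela* encodes RelA, the subunit with a transactivation domain in the main canonical dimer, and was the most abundant of the 10 transcripts. Its level was 109.6, 110.6 and 112 FPKM in the control libraries and 163, 153 and 152 FPKM with *Xbp1* siRNA. Every library with *Xbp1* siRNA lay well above the narrow range of the controls. On the log2 scale the change was 0.49 ± 0.037 (SE, limma adjusted p = 5.59e-05), which is 1.41-fold, with a 95% interval from 0.41 to 0.58 on the log2 scale. In the control cells *Rela* stood at the 93.3th percentile of the genes tested by its mean level.

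*Nfkb1* encodes p105, which is processed to p50, the usual partner of RelA. It had 18.9, 19.1 and 18.4 FPKM with control siRNA and 19.4, 20.7 and 19.7 FPKM with *Xbp1* siRNA. The groups did not overlap, but the gap between them was small. The log2 fold change was 0.08 (limma adjusted p = 0.226), and its 95% interval ran from −0.03 to 0.20, below the whole interval of *Rela*. The ratio of *Rela* to *Nfkb1* was higher with *Xbp1* siRNA, at 7.84 ± 0.518 (SD, n = 3) against 5.90 ± 0.171 (SD, n = 3) in the control cells. Its lowest value with *Xbp1* siRNA, 7.38, lay above the highest control value, 6.09.

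*Nfkb2* encodes p100, which acts as an IkB in its unprocessed form and as the source of p52 after processing. It was the second most abundant of the 10 transcripts, with 76.7, 72.3 and 67.8 FPKM in the control libraries and 114, 108 and 109 FPKM with *Xbp1* siRNA. The conditions were far apart relative to the spread within each. On the log2 scale the change was 0.61 ± 0.051 (SE, limma adjusted p = 9.05e-05), or 1.53-fold, with a 95% interval from 0.49 to 0.73 on the log2 scale.

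*Relb* encodes RelB, the partner of p52 and p100. Its level was 6.67, 5.26 and 7.20 FPKM with control siRNA and 11.4, 9.96 and 10.3 FPKM with *Xbp1* siRNA. The groups did not overlap, although the control libraries varied more than those of *Rela* or *Nfkb2*. On the log2 scale the change was 0.73 ± 0.13 (SE, limma adjusted p = 0.00294), or 1.65-fold, with a 95% interval from 0.43 to 1.02 on the log2 scale. Leaving out each library in turn gave log2 fold changes from 0.60 to 0.82. The intervals of *Relb* and *Nfkb2* overlapped, and the ratio of *Relb* to *Nfkb2* was 0.0727 to 0.106 in the control libraries and 0.0923 to 0.0995 with *Xbp1* siRNA, ranges that overlap.

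*Rel* encodes c-Rel, a subunit best known from lymphocytes. It had the lowest level of the 5 subunits, with 2.59, 2.43 and 3.58 FPKM in the control libraries and 2.45, 2.77 and 1.97 FPKM with *Xbp1* siRNA. The groups overlapped. The log2 fold change was −0.24 ± 0.19 (SE, limma adjusted p = 0.364), with a 95% interval from −0.70 to 0.21. It moved to −0.08 without control replicate 3, which had the highest value.

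Summed over the 5 subunits, the mean level was 211 ± 2.91 FPKM with control siRNA and 299.5 ± 9.97 FPKM with *Xbp1* siRNA (SD, n = 3 each), without overlap. *Rela* supplied 52.5% ± 1.26 (SD, n = 3) of this sum in the control cells and 52.1% ± 0.345 (SD, n = 3) with *Xbp1* siRNA, and *Nfkb2* supplied 34.2% ± 1.67 (SD, n = 3) and 36.9% ± 0.283 (SD, n = 3). The share of *Nfkb1* was 8.90% ± 0.188 (SD, n = 3) in the control cells and 6.66% ± 0.394 (SD, n = 3) with *Xbp1* siRNA, without overlap. The share of *Relb* was 3.02% in the control cells and 3.52% with *Xbp1* siRNA, and that of *Rel* was 1.36% and 0.80%.

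**Figure D2:**
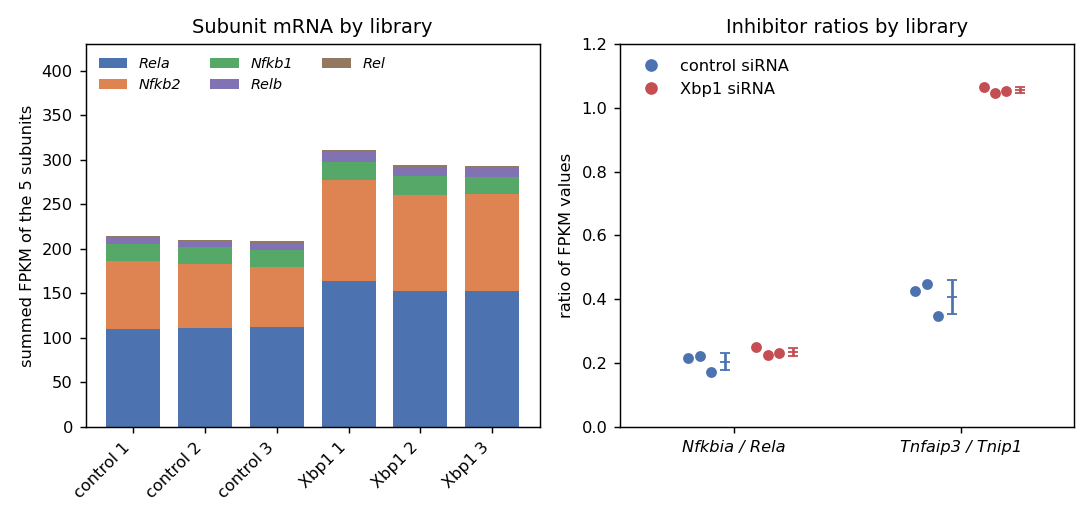
Left, summed FPKM of the 5 subunit genes in each library, stacked by gene; right, FPKM of *Nfkbia* divided by that of *Rela* and FPKM of *Tnfaip3* divided by that of *Tnip1* in each library (points), with mean and SD of 3 libraries beside them. The bars are 209 to 214 FPKM tall with control siRNA and 293 to 311 FPKM with *Xbp1* siRNA, and the ratio of *Tnfaip3* to *Tnip1* separates the conditions widely while that of *Nfkbia* to *Rela* does so by a narrow margin.

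*Nfkbia* encodes IkBα, the inhibitor that is destroyed within minutes of stimulation and then made again under the control of NF-kB. Its level was 23.8, 24.7 and 19.5 FPKM in the control libraries and 40.9, 34.2 and 35.3 FPKM with *Xbp1* siRNA. All libraries with *Xbp1* siRNA were higher than all controls. On the log2 scale the change was 0.70 ± 0.10 (SE, limma adjusted p = 0.00150), or 1.63-fold, with a 95% interval from 0.46 to 0.95 on the log2 scale. Relative to *Rela*, *Nfkbia* was at 0.217, 0.223 and 0.174 under control siRNA and at 0.25, 0.224 and 0.232 with *Xbp1* siRNA. These ratios barely separated, since control replicate 2 and *Xbp1* siRNA replicate 2 differed by less than the spread within each group.

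*Nfkbie* encodes IkBε, another inhibitor that NF-kB can induce and that binds dimers of RelA and c-Rel. It had 6.63, 5.56 and 5.65 FPKM with control siRNA and 5.66, 5.60 and 6.83 FPKM with *Xbp1* siRNA, and the groups overlapped almost fully. The log2 fold change was 0.02 (limma adjusted p = 0.923), with a 95% interval from −0.25 to 0.29, whose upper end lies below the lower end for *Nfkbia*, and quantile normalization turned its sign, to −0.0382. The ratio of *Nfkbia* to *Nfkbie* was 3.44 to 4.43 in the control libraries and 5.17 to 7.22 with *Xbp1* siRNA.

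*Bcl3* encodes an atypical IkB protein that acts in the nucleus with p50 and p52. It was barely detected, at 0.123, 0 and 0.125 FPKM in the control libraries and 0.30, 0.125 and 0.159 FPKM with *Xbp1* siRNA. The groups overlapped. The fitted log2 fold change of 0.74 (limma adjusted p = 0.289) depends on the pseudocount, with 0.14 for a pseudocount of 1 and 1.76 for 0.01.

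For 4 of the 10 genes the values of all 6 libraries were whole multiples of a common step within 0.01 reads, after scaling to relative depth, so that the step could be taken as 1 read and the reads behind each value could be given. *Nfkbia* rested on 300, 292 and 240 reads under control siRNA against 527, 423 and 516 reads under *Xbp1* siRNA. *Relb* had 120, 89 and 127 reads with control siRNA and 210, 176 and 215 reads with *Xbp1* siRNA. *Nfkbie* had 152, 120 and 127 reads with control siRNA and 133, 126 and 182 reads with *Xbp1* siRNA. *Xbp1* siRNA replicate 3, the deepest library at 116% of control replicate 1, holds the highest count of *Nfkbie*, and its FPKM there was also the highest of the 6.

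These reads show how much of the spread counting alone would give. Counting error at these read numbers corresponds to a coefficient of variation of 6.0% for *Nfkbia*, 9.45% for *Relb* and 8.67% for *Nfkbie* in the control cells, while the FPKM of the 3 control libraries varied by 12.4%, 15.7% and 9.92%. With *Xbp1* siRNA the counting values were 4.52%, 7.07% and 8.25%, and the observed ones 9.66%, 7.08% and 11.5%, so that the spread of *Relb* there was about what counting alone would give. For *Bcl3* the control libraries held 2, 0 and 2 reads, and those with *Xbp1* siRNA held 5, 2 and 3. Scaled to depth, the ratio of its 10 reads to 4 reads was 2.30, with an exact 95% interval from 0.665 to 10.1 that covers counting error only, so a difference was not detectable at this depth. The other 6 genes did not fall on such steps, and their reads are not known.

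*Tnfaip3* encodes A20, a ubiquitin-editing enzyme that shuts down signaling from tumor necrosis factor and Toll-like receptors to the IkB kinase complex. Its level was 8.5, 7.82 and 7.35 FPKM in the control libraries and 21.6, 20.6 and 19.1 FPKM with *Xbp1* siRNA. Each library with *Xbp1* siRNA held over 2 times the level of any control. On the log2 scale the change was 1.36 ± 0.079 (SE, limma adjusted p = 1.84e-05), or 2.57-fold, with a 95% interval from 1.18 to 1.55 on the log2 scale. This was the 318th highest log2 fold change of the 14361 genes tested. Its interval began above the ends of the intervals of the other 4 genes that rose, the highest of which was 1.02 for *Relb*. Leaving out each library in turn gave log2 fold changes from 1.31 to 1.42.

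*Tnip1* encodes ABIN1, a protein that binds ubiquitin chains and A20 and helps A20 to restrain the pathway. It had 19.9, 17.5 and 21.2 FPKM with control siRNA and 20.3, 19.6 and 18.2 FPKM with *Xbp1* siRNA, with full overlap. The log2 fold change was −0.0084 (limma adjusted p = 0.95), with a 95% interval from −0.20 to 0.18, and 0.0089 after quantile normalization. The mRNA of A20 was below that of its partner in the control cells and at about the same level after *Xbp1* silencing. The ratio of *Tnfaip3* to *Tnip1* was 0.427, 0.447 and 0.346 under control siRNA against 1.07, 1.05 and 1.05 under *Xbp1* siRNA. Relative to *Nfkbia*, *Tnfaip3* was at 0.317 to 0.378 in the control libraries and at 0.530 to 0.601 with *Xbp1* siRNA, without overlap.

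**Figure D3:**
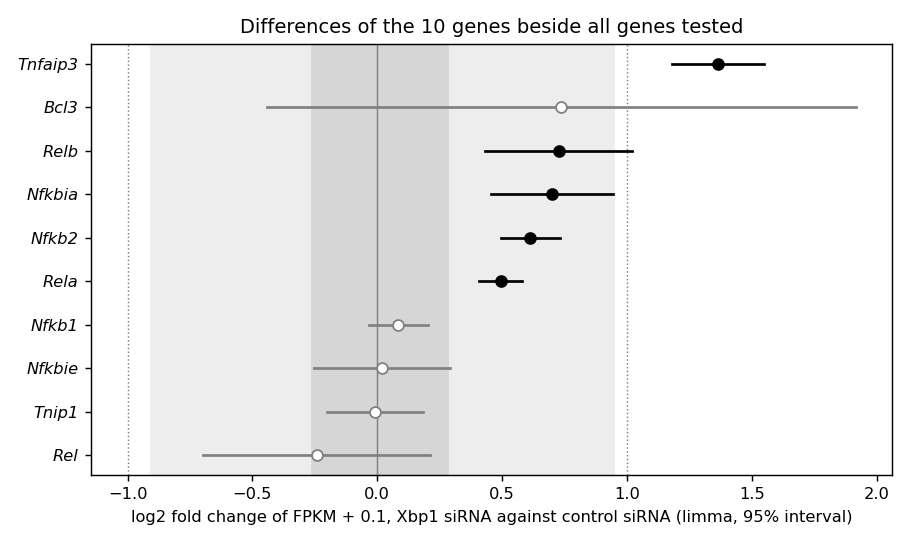
Log2 fold change of FPKM + 0.1 between *Xbp1* siRNA and control siRNA for the 10 genes (points) with 95% intervals from limma (lines); filled points passed an adjusted p of 0.05, the dotted lines mark 1 and −1, and the bands hold the middle 50% and 90% of all genes tested. *Tnfaip3* at 1.36 lies outside the wider band, which ends at 0.95, while *Relb*, *Nfkbia*, *Nfkb2* and *Rela* lie between the edges of both bands.

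By level, the order of the 10 transcripts in the control cells was *Rela*, *Nfkb2*, *Nfkbia*, *Tnip1*, *Nfkb1*, *Tnfaip3*, *Relb*, *Nfkbie*, *Rel* and *Bcl3*. The range of *Tnip1*, 17.5 to 21.2 FPKM, overlapped those of *Nfkbia* and *Nfkb1*, which did not overlap each other, and *Relb* overlapped *Nfkbie*. With *Xbp1* siRNA, *Nfkbia* stood clear of *Tnip1* as well as of *Nfkb1*, and *Tnfaip3* overlapped both *Tnip1* and *Nfkb1*. *Relb* then stood clear of *Nfkbie*, whose highest value was 6.83 FPKM against a lowest value of 9.96 FPKM for *Relb*.

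Across the 6 libraries, the log2 levels most like those of *Tnfaip3* were of *Mtss1* (Pearson's r = 0.9999), *Ifi30* (r = 0.9998) and *Tpcn1* (r = 0.9996), among 8058 genes with a mean of at least 5 FPKM and a symbol other than a LOC number. These coefficients describe 6 points that fall into the 2 conditions, and 178 genes had r over 0.99. *Ifi30*, which encodes a lysosomal thiol reductase, was at 28.8 to 33.3 FPKM in the control libraries and at 87.8 to 99.2 FPKM with *Xbp1* siRNA, the largest change of the 3.

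Other genes of the pathway were examined by role, in 7 lists of 90 genes, of which 71 were tested. Together, 25 of these were higher and 14 lower by adjusted p under 0.05, with a median log2 fold change of 0.17, against 20.2% and 20.2% of all genes tested called higher and lower. *Traf1* and *Birc3* stand in 2 lists and were counted once here. The counts by role follow in the order of the signal from receptor to target gene. The lists were chosen with earlier results of these data known, so counts set beside shares of all genes are descriptions. When each library was left out, with fewer samples in every fit, 19 to 25 genes were higher and 9 to 12 lower, the fewest lower being without *Xbp1* siRNA replicate 3.

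Of the receptors, 7 of 9 were tested, with 2 higher and 1 lower, near the 40.4% of all genes tested that changed in either direction, and a median log2 fold change of −0.12. *Il1rap*, the accessory chain of the interleukin-1 receptor, rose by 0.35 on the log2 scale (limma adjusted p = 0.00739), and *Ltbr*, the lymphotoxin receptor, by 0.19 (limma adjusted p = 0.0335). *Tnfrsf1a*, the main receptor of tumor necrosis factor, fell by 0.34 (limma adjusted p = 0.00342). The call of *Ltbr* was lost in 5 of the 6 fits that left out 1 library, all but that without control replicate 1, with adjusted p from 0.0536 to 0.104 (limma).

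The adaptors and ubiquitin ligases, which link receptors to the kinases, were higher in 9 and lower in 1 of the 18 tested, against 20.2% and 20.2% of all genes tested, with a median of 0.22. *Tradd*, the adaptor of the tumor necrosis factor receptor, rose from 13.1 ± 0.658 to 22.3 ± 1.22 FPKM (SD, n = 3 each), or by 0.76 on the log2 scale (limma adjusted p = 1.02e-04). *Irak1*, a kinase that acts with the adaptor MyD88, rose from 25.8 ± 0.438 to 40.2 ± 1.67 FPKM (SD, n = 3 each), or by 0.63 on the log2 scale (limma adjusted p = 4.73e-05). *Tirap*, an adaptor of Toll-like receptors, rose by 0.60 (limma adjusted p = 0.00379).

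Of the kinases and their subunits, 1 was higher and 3 were lower among 9 tested, with a median of 0.17. Counted in either direction, 4 of 9 is near the 40.4% of all genes tested. *Map3k14*, which encodes NIK of the noncanonical pathway, fell by 0.60 on the log2 scale (limma adjusted p = 0.0199), while *Nfkb2* and *Relb* of that pathway rose. *Tab3*, an adaptor of the kinase TAK1, fell by 0.49 (limma adjusted p = 0.0116), and *Ikbkg*, the regulatory subunit of the IkB kinase complex, by 0.26 (limma adjusted p = 0.00839). The call of *Map3k14* was lost without control replicate 3 and without *Xbp1* siRNA replicate 2 or 3, with adjusted p from 0.0636 to 0.0671 (limma).

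Of 5 genes of the ubiquitin ligase that marks IkB, *Skp1* alone changed, against 40.4% of all genes tested in either direction, from a mean of 79.0 FPKM to one of 57.9 FPKM, a log2 fold change of −0.45 (limma adjusted p = 0.00105). Of 3 other IkB proteins, where 1 called is likewise not above that share, *Nfkbiz* fell by 0.38 on the log2 scale (limma adjusted p = 0.0496), which was lost in each of the 6 fits that left out 1 library, with adjusted p from 0.0650 to 0.137 (limma). Of the other negative regulators, 4 of 10 were higher and 4 lower, against 20.2% and 20.2% of all genes tested. *Pdlim2*, a ligase that acts on nuclear RelA, rose by 0.77 (limma adjusted p = 0.00360). The deubiquitinases *Otulin* and *Cyld*, which remove the ubiquitin chains that activate the pathway, fell by 0.46 (limma adjusted p = 0.00304) and 0.43 (limma adjusted p = 0.0221). The call of *Cyld* was lost without control replicate 1 or 3 and without *Xbp1* siRNA replicate 1 or 3, with adjusted p from 0.0576 to 0.0721 (limma).

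**Figure D4:**
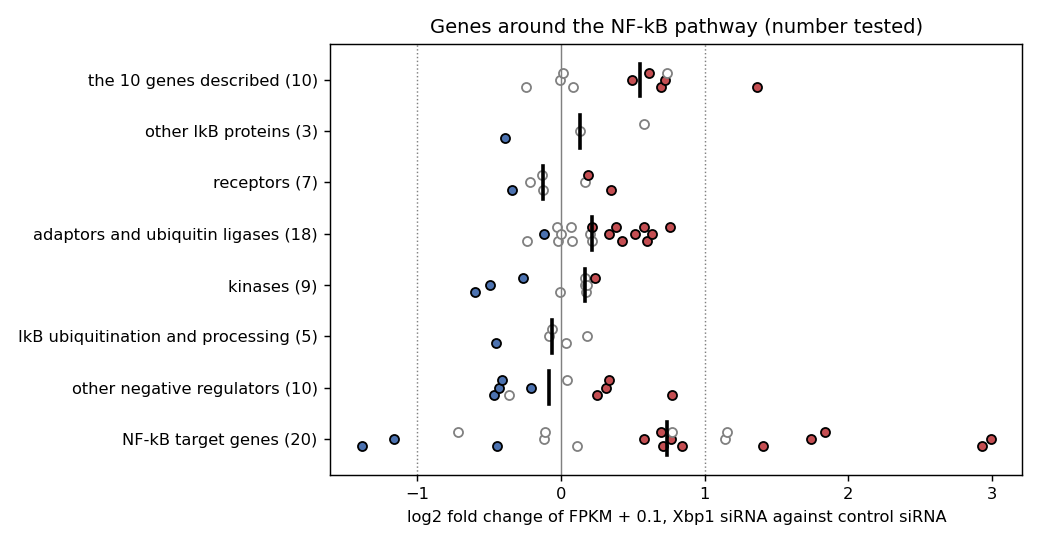
Log2 fold change of FPKM + 0.1 between *Xbp1* siRNA and control siRNA for each tested gene of the 10 described and of 7 lists around the pathway; red and blue points passed an adjusted p of 0.05 as higher and lower, open points did not, and vertical bars are medians. The median of the 10 genes is 0.55, or 0.49 without *Bcl3*, that of the target genes is 0.74, or 0.70 without *Csf2* and *Vcam1*, and the target genes spread from −1.38 to 2.99.

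Textbook target genes of NF-kB had a median log2 fold change of 0.74 over the 20 of 34 that were tested, the others being below the filter or not found by name. Of these 20, *Csf2* and *Vcam1* passed the filter only through their levels with *Xbp1* siRNA and were not called, and without them the median was 0.70. By adjusted p under 0.05, 10 were higher and 3 lower, against 20.2% and 20.2% of all genes tested. With the fold limit, 5 were higher and 2 lower, against 2.69% and 2.5%. As this list was chosen with earlier results of these data known, its counts and median are a description and not a test. *Icam1*, an adhesion molecule for leukocytes, rose by 1.74 on the log2 scale, from 60.1 ± 1.65 to 201 ± 6.95 FPKM (SD, n = 3 each, limma adjusted p = 5.43e-07). *Plau*, the urokinase that activates plasminogen, rose by 1.84 (limma adjusted p = 9.33e-05), and *F3*, tissue factor, rose by 1.40 (limma adjusted p = 4.68e-04). *Ptgs2*, which encodes cyclooxygenase-2, fell by 1.38 (limma adjusted p = 1.65e-06), and *Ier3*, an immediate early gene, fell by 1.16 (limma adjusted p = 6.37e-05). *Ptgs2* and *Ier3* are also induced by growth factor signaling, and which signals acted on the target genes that rose or fell was not tested. *Cxcl10*, a chemokine, was seen with 1, 2 and 1 reads under control siRNA against 31, 12 and 15 under *Xbp1* siRNA, a ratio of 13.4 scaled to depth, with an exact 95% counting interval from 4.95 to 50.7. *Ptx3*, a soluble pattern recognition molecule, had 7, 10 and 1 reads with control siRNA and 58, 45 and 58 with *Xbp1* siRNA, and its log2 fold change of 2.99 was 2.34 without control replicate 3, 1.59 with a pseudocount of 1 and 3.49 with a pseudocount of 0.01.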

How the data were processed

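RNA-Seq of 6 libraries was analysed, 3 for each of 2 conditions taken from the sample titles. The authors deposited FPKM values, 1 library per file. HISAT2 2.1.0 and Cuffdiff 2.2.1 are named in the submitters' processing notes without a role; the genome build and annotation are not given in the sources used here, so no coordinates are given. As FPKM are not counts, no count model was fitted. On the log2(FPKM + 0.1) scale, limma (version 3.58.1, R 4.3.3; lmFit, eBayes with trend) compared the conditions without covariates for genes whose mean reached 0.1 FPKM, with Benjamini-Hochberg adjustment. The limits of 0.05 and of 1 on the log2 scale follow the study. The procedure was tested on simulated data. Entries with the same symbol were kept apart.

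Depth is not stated. Relative depth came from the most frequent FPKM ratio between libraries among weakly expressed genes, and was 94.0% to 116% of control replicate 1. Of the genes tested, 42.7% had values above 0 in at least 4 libraries that were all whole multiples of a step within 0.01 reads, searched up to 2000 reads. Intervals of read ratios are exact (Clopper-Pearson) and cover counting error only.

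The 10 genes and the lists were chosen with earlier results of these data known. Named genes are the 10, *Xbp1*, list genes past both limits, the 3 largest changes per list at adjusted p under 0.05, and the 3 genes most like each of the 10 that passed both limits. All 10 symbols were also found in a RefSeq table of the Chinese hamster, used for names only, and 94 of 100 symbols of these genes and the 7 pathway lists were found by name. The alternatives comprised a pseudocount of 1 or 0.01, no filter or one at 1 FPKM, median-ratio scaling, quantile normalization, eBayes without trend, the replicate number as a block, and leaving out each library. Python 3.11.15, numpy 2.4.6, pandas 2.3.3 and scipy 1.17.1 were used.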

Additional observations from a re-analysis of the deposited data

How the results depend on the processing

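Under each of the 14 refits, 5 of the genes fitted were higher and 0 lower by adjusted p, and 1 was higher and 0 lower with the fold limit added. All 10 genes were fitted except with the filter at 1 FPKM, which leaves out *Bcl3*. With the replicate number as a block the count was also 5, and the block changed no call among the 10. No pairing by replicate number was detected. Deviations of same-numbered libraries had r of −0.029, −0.027 and −0.012 over genes, and those of differently numbered ones −0.017 to 0.044. Such correlations cannot exclude a shared culture or day. With the block, 25 list genes were higher and 11 lower, against 25 and 14 in the main fit. Of the named genes, *Cyld* (limma adjusted p = 0.0544) and *Nfkbiz* (limma adjusted p = 0.0875) were no longer called. The median log2 fold change of the 10 was 0.32 with a pseudocount of 1, which shrinks the value of *Bcl3*, and 0.42 to 0.57 when each library was left out. In those fits 9 to 12 list genes were lower and 19 to 25 higher, with fewer samples than in the full fit. Quantile normalization turned the sign of *Nfkbie* to −0.0382 and of *Tnip1* to 0.0089, and when each library was left out these lay between −0.0739 and 0.10 and between −0.0860 and 0.0531; neither passed the test in any fit, and the cause was not tested. *Xbp1* lay between −3.89 and −3.28. The ratio of *Nfkbia* to *Rela* lay between 0.195 and 0.220 for control siRNA and between 0.228 and 0.241 for *Xbp1* siRNA when each library was left out. Of the named genes, *Nfkbiz* was not called with no filter (limma adjusted p = 0.0799), and *Ltbr* was not called without the trend (limma adjusted p = 0.0860). With no filter 26 list genes were higher and 12 lower, and without the trend 22 were higher and 13 lower. Over all genes tested, 386 were higher and 359 lower past both limits, against 114 and 205 with a pseudocount of 1 and 242 and 296 with a filter at 1 FPKM, which drops *Bcl3*. Among the 4 genes with known reads, *Bcl3* had the fewest. Leaving out genes whose mean was under the filter in 1 condition was chosen after seeing the data.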
